A study of Mus musculus with 6 samples.

Results

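The genes described here encode Wnt ligands, their Frizzled receptors and Lrp coreceptors, the secreted Wnt antagonists and the pathway's feedback gene Axin2. They were chosen by gene symbol alone: Wnt, Fzd, Dkk or Sfrp followed by a number, with or without the letter a or b, and 7 further genes (Frzb, Wif1, Sost, Sostdc1, Lrp5, Lrp6 and Axin2). The rule found 44 genes with 55 probes, of 22811 genes that the array's probes could be assigned to. They were 19 ligands, 10 Frizzled receptors, 2 coreceptors, 12 antagonists and 1 target. RNA came from whole hearts of male C57BL6 mice aged 10 weeks, in 2 groups of 3 mice with 1 array per mouse. Every mouse was starved for 16 h and given 20 mg/kg of lipopolysaccharide (LPS) into the peritoneum, a bacterial cell wall component that sets off septic inflammation. The saline group then received saline and the rhTM group received recombinant human thrombomodulin (rhTM), the thrombin-binding protein of vessel walls made as a soluble drug, at 3 and 24 h after LPS. Hearts were taken at 30 h, and no heart without LPS was analysed here, so each difference below is rhTM against saline after LPS.

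Wnt proteins are secreted, lipid-modified signals that bind a Frizzled receptor together with Lrp5 or Lrp6. In the branch that runs through beta-catenin this stops the destruction of beta-catenin, which then enters the nucleus and activates genes with TCF/LEF factors. Axin2, itself a part of the destruction complex, is among the genes so activated and feeds back on the pathway. Other Wnts, typically Wnt5a and Wnt11, act mainly without beta-catenin on cell polarity and calcium. Secreted Frizzled-related proteins (Sfrp1 to Sfrp5 and Frzb) and Wif1 bind Wnts outside the cell, whereas Dickkopf proteins and sclerostin (Sost) block the Lrp coreceptors. In the adult heart the pathway is generally quiet and is known to be engaged after injury, mostly in cells other than cardiomyocytes.

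The DNA just before the starts of Fzd7 and Axin2 is shown because Fzd7 was the receptor that passed the test and Axin2 is the standard readout of the beta-catenin branch. The windows are the 250 bases before the gene start from RefSeq (build GRCm38.p6, chr1:59481897-59482146 and chr11:108920099-108920348, both on the plus strand), written 5′ to 3′, with matches to the TCF/LEF core in capitals.
Fzd7: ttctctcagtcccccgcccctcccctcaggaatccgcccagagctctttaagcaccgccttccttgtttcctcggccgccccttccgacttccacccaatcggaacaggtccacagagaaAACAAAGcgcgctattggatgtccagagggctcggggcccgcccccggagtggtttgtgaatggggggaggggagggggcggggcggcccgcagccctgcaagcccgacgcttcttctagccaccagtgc
Axin2: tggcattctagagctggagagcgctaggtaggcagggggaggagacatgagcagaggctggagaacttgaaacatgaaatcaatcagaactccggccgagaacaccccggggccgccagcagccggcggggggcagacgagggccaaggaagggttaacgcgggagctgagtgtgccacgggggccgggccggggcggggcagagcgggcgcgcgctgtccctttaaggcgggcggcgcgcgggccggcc
The 4 cores were searched on both strands. Each begins with CTTTG and ends with AT, with TT, with AA or with TA, so that only 1 of them can match at a given start. The Fzd7 window held CTTTGTT on the minus strand, 130 to 124 bases before the start. The Axin2 window held none of the 4 cores, which says only that these letters are not in it. RefSeq windows were found for 29 of the 44 genes (32 windows), and 4 of those windows (12.5%), of Fzd7, Dkk1, Wnt5b and Wnt11, held a core. Of all 32851 windows 14.8% did.

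The arrays differed in ways that touch every comparison. The array identifiers placed saline 1 and 2 on a first slide (slide 1, scan 1), and the rhTM arrays, together with saline 3, on a second (slide 2, scan 2). Each difference was therefore also computed within slide 2, where it rests on saline 3 alone against the 3 rhTM arrays. Cardiomyocyte markers were above background on all arrays, at a summed signal of 1548 to 2138 times the array's 75th percentile in saline and 2278 to 3185 in rhTM hearts (7 of 7 markers). Neutrophil markers (7 of 7 tested) summed to 135 to 1034 in saline and 85.0 to 486 in rhTM hearts, with the highest value of each group in the array numbered 3. Endothelial markers (7 of 7) summed to 105 to 111 and 85.0 to 94.5, and pericyte and smooth muscle markers (7 of 7) to 97.2 to 145 and 62.5 to 68.9. The last list did not move as one, since Acta2 (-1.55, adjusted p = 0.0323) and Pdgfrb (adjusted p = 0.0427) were called lower and Rgs5 (1.21, adjusted p = 0.0443) higher, with a median difference of -0.03. A sum follows its brightest genes, such as Egfl7 in the endothelial list. In that list 2 of 7 markers lay higher with rhTM and 5 lower, with a median difference of -0.14 and none called. Of the cardiomyocyte markers 6 lay higher and 1 lower, and of the neutrophil markers 1 lay higher and 6 lower. The part of these marker differences in the results below was not tested. In RNA of a whole heart, fewer cells of a type and less RNA per cell cannot be told apart.

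The test took in 27 of the 44 genes, those detected above background by every array of 1 or both groups. Among the ligands these were Wnt1, Wnt2, Wnt4, Wnt5a, Wnt5b, Wnt6, Wnt7b, Wnt9a and Wnt11 (9 of 19), and among the receptors all but Fzd10 (9 of 10). Both coreceptors, Axin2 and 6 of 12 antagonists (Frzb, Sfrp1, Sfrp2, Sfrp5, Dkk3 and Sostdc1) completed the list. Not well above background on any array were 13 genes: Wnt2b, Wnt3, Wnt3a, Wnt7a, Wnt10a, Wnt10b, Wnt16, Fzd10, Dkk1, Dkk2, Dkk4, Sost and Sfrp4. The other 4, Wnt8a, Wnt8b, Wnt9b and Wif1, were above it on some arrays of a group and were not tested. On all 6 arrays 21 genes were above background. The other 6 passed the filter through 1 group only, Sostdc1 and Fzd8 through saline and Axin2, Fzd5, Wnt2 and Wnt6 through rhTM, a choice that favours a difference between groups. Axin2, Fzd5 and Sostdc1 were above background on 0 arrays of the other group.

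**Figure D1:**
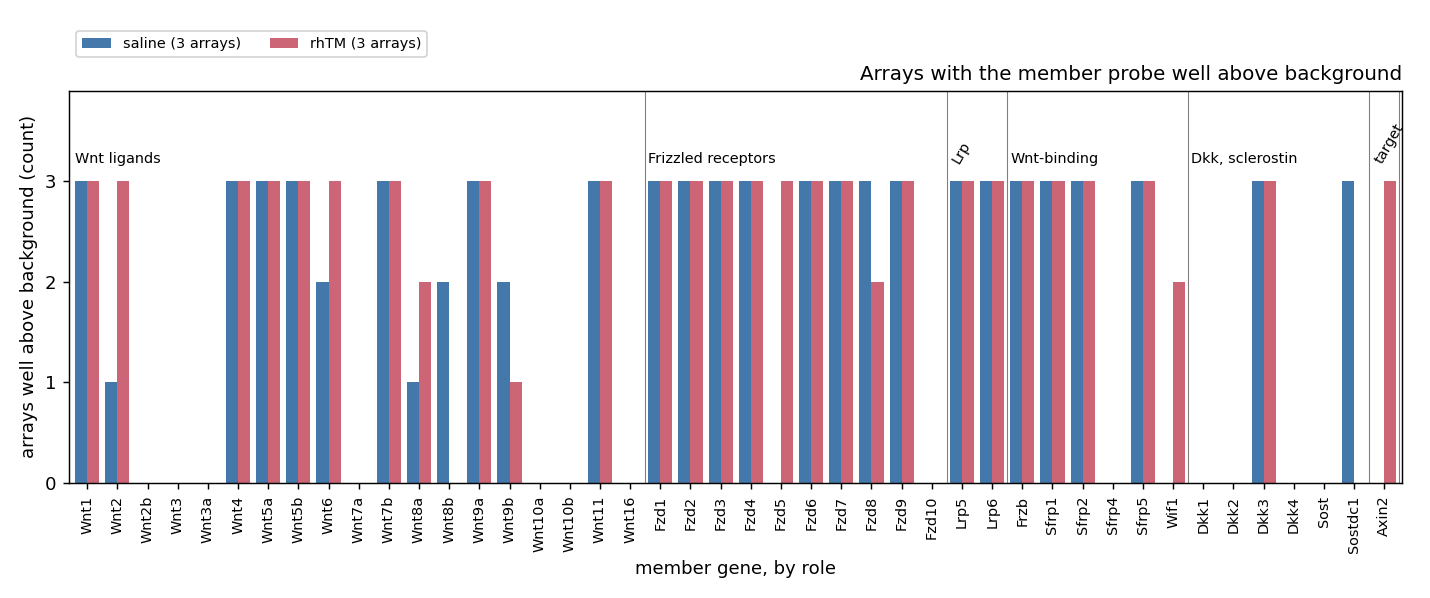
Number of arrays, of 3 per group, on which the brightest probe of each of the 44 genes was well above background, by role (blue, saline; red, rhTM). Axin2 and Fzd5 were above it on all 3 rhTM arrays and on 0 saline arrays, Sostdc1 on all 3 saline arrays and 0 rhTM arrays, and 13 genes on none.

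With rhTM the receptor gene Fzd7 was higher by 1.98-fold and the antagonist gene Sostdc1 was at least 4.73-fold lower. These 2 of 27 genes passed the test over all genes, limma with an adjusted p under 0.05, which called 5.20% of the 14697 genes tested (2.77% higher and 2.43% lower). Folds worded as at least compare group means, with readings under the lowest signal above background raised to it. They leave out the spread between arrays and are no confidence limits. They hold for the main processing over all arrays, and other settings gave smaller differences for some genes. The ligands Wnt2 and Wnt6, the receptors Fzd2, Fzd3 and Fzd5 and the target Axin2 lay apart between the groups and missed the threshold. The groups did not overlap in 9 of the 27 genes, in 7 with rhTM above and in 2 with rhTM below, beside 35.7% of all genes tested (17.0% above and 18.7% below). Of the 21 genes above background on all arrays 4 were apart, beside 34.9% of all such genes, and 9 of the 27 had an unadjusted p under 0.05, beside 30.7%. Read against these shares, the count called and the count apart in either direction were near the background, while more genes lay apart above and fewer below than among all genes, and fewer lay apart among those above background on all arrays. None of these differences in share was tested. Of the 7 genes apart above, Axin2, Fzd5, Wnt2 and Wnt6 passed the filter through rhTM alone, where they were high. Sostdc1, apart below, passed it through saline alone. Levels are given as log2 signal relative to the array's 75th percentile, and differences as rhTM less saline, followed by their SE from limma (n = 3 and 3). The 27 fitted differences, of which those at both ends involve a group below background, ran from -2.68 to 3.02. Of all 14697 differences 7464 were above 0, and of these 27, 16 were, with a median of 0.32 beside 0.01 for all genes tested. Their median was 0.31 over the 21 genes above background on all arrays (-0.02 for all such genes) and 0.35 within slide 2, but 0.04 without saline 3.

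The calls of Fzd7 and Sostdc1 depended on saline 1, saline 2, rhTM 1 and rhTM 2, and both were kept without rhTM 3 or without saline 3. No gene of the 27 was called by limma without saline 1, without saline 2, without rhTM 1 or without rhTM 2. An unadjusted p under 0.05 was reached by 7 to 9 of them, beside 2470 to 3156 of all 14697 genes tested. In those fits 0 to 55 genes of the whole array were called higher and 0 to 3 lower. Without rhTM 3, 382 were called higher and 512 lower. Without saline 3, when slide and group coincided and could not be told apart, 9 of the 27 were called higher and 3 lower, beside 20.5% and 19.1% of all genes. They were Fzd7 and Sostdc1 with Axin2 (3.84), Wnt1 (0.73), Wnt2 (1.26), Wnt6 (0.89), Wnt7b (1.22), Fzd3 (0.65), Fzd6 (0.85), Lrp5 (0.53), Fzd2 (-1.13) and Fzd8 (-1.13). Over all genes 53.3% of calls were higher. The share was 45.8% with quantile normalization, 48.6% with normexp and 46.2% among genes above background on all arrays. It was 64.3% after median centring of the arrays and 66.2% with the slide as a block. With that block 5.78% of all genes were called (3.83% higher and 1.95% lower), and Fzd7 and Fzd1 among the 27. With the replicate number as a block 2.43% were called higher and 1.65% lower, and Sostdc1 alone among the 27. With no filter on dim probes neither Fzd7 (adjusted p = 0.0874) nor Sostdc1 (0.0810) was called.

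**Figure D2:**
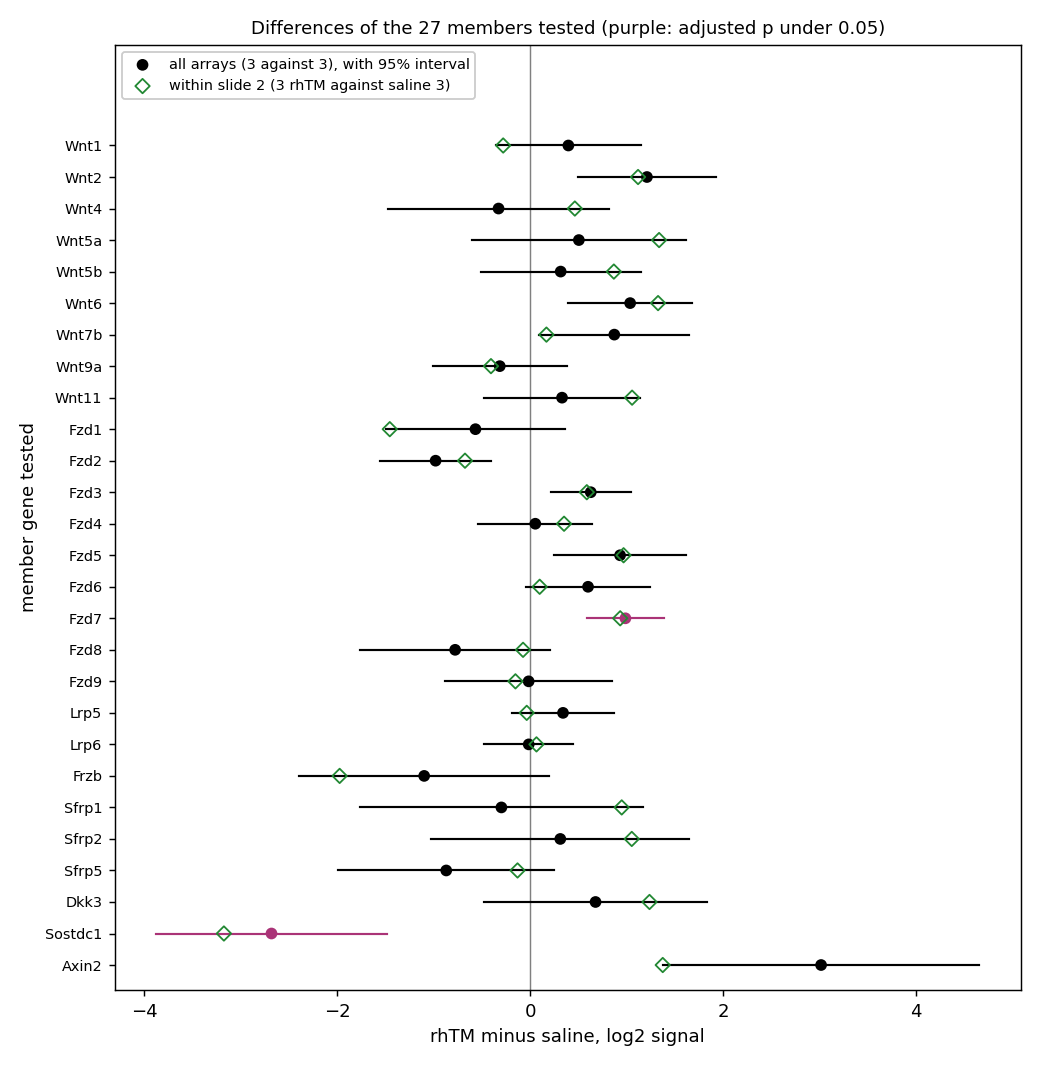
Difference in log2 signal, rhTM minus saline, of the 27 genes tested (dots, all arrays, with the 95% interval of each gene unadjusted for the number of genes; purple, called; open diamonds, within slide 2 against saline 3). Fzd7 lies at 0.99 and Sostdc1 at -2.68, and Axin2 has the widest interval, from 1.38 to 4.66.

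Among the ligands none passed (limma, 0 higher and 0 lower of 9, with 3 at an unadjusted p under 0.05). Of the 9 changes 7 were above 0, beside 7464 of all 14697 genes tested. Wnt2 and Wnt6 among them passed the filter through rhTM alone. The median was 0.40 over all arrays and 0.87 within slide 2, which rests on saline 3, beside 0.01 and -0.003 for all genes tested. Wnt2, a ligand of the beta-catenin branch, lay at -5.25, -4.17 and -4.57 in saline 1, 2 and 3 and at -3.38, -3.59 and -3.37 in rhTM 1, 2 and 3. All rhTM hearts lay above all saline hearts, but only 1 of the saline arrays, saline 2, read above background, so that the size of the difference is uncertain. It was 1.21 ± 0.30 (adjusted p = 0.0659), and 1.12 within slide 2. Wnt6 lay at -4.54, -5.08 and -5.24 in saline and at -4.15, -3.57 and -4.04 in rhTM hearts, again with the groups apart and close to background. The difference of Wnt6 was 1.04 ± 0.27 (adjusted p = 0.0730), and 1.33 within slide 2. With normexp background correction, whose added offset compresses dim probes, Wnt2 differed by 0.13 and Wnt6 by 0.10.

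Wnt7b, a ligand that also acts through beta-catenin, lay at -3.49, -3.45 and -2.41 in saline and at -2.08, -2.38 and -2.28 in rhTM hearts. Saline 3 lay just under the lowest rhTM array, rhTM 2, whereas saline 1 and 2 lay far lower. The difference of 0.87 ± 0.32 (adjusted p = 0.134) shrank to 0.17 within slide 2. Wnt1, best known from the developing brain, showed the same layout, with -0.90 and -1.02 in saline 1 and 2 but 0.06 in saline 3, and -0.19, -0.34 and -0.15 in rhTM hearts. Its difference was 0.40 ± 0.31 over all arrays (adjusted p = 0.409) and -0.28 within slide 2.

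The ligands Wnt5a and Wnt11, which act mainly without beta-catenin, differed more within slide 2 than over all arrays, and neither was called. Wnt5a lay at -1.52, -1.25 and -2.63 in saline and at -0.96, -0.90 and -2.02 in rhTM hearts, so that the arrays numbered 3 were the lowest of both groups. It differed by 0.50 ± 0.46 (adjusted p = 0.477) and by 1.34 within slide 2. Wnt11 lay at -2.20, -2.15 and -3.27 in saline and at -2.23, -1.99 and -2.41 in rhTM hearts, and saline 3 alone stood apart. It differed by 0.33 ± 0.34 (adjusted p = 0.524), and by 1.06 within slide 2 (slide as a block, adjusted p = 0.0546). Wnt5b differed by 0.32 ± 0.35 (0.87 within slide 2), Wnt4 by -0.33 ± 0.48 (0.46 within slide 2) and Wnt9a by -0.31 ± 0.29 (-0.41 within slide 2), none called (adjusted p 0.480 to 0.661).

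Of the ligands below the filter, Wnt9b lay at -2.46, -2.74 and -4.16 in saline and at -5.11, -4.66 and -3.89 in rhTM hearts. It was above background in saline 1 and 2 and in rhTM 3. Wnt8a was above it in saline 3 (-3.97) and in rhTM 1 and 2 (-4.38 and -4.47), and Wnt8b in saline 2 and 3 (-4.28 and -3.68). With no filter on dim probes Wnt9b differed by -1.43 ± 0.53 (adjusted p = 0.205 over 22811 genes), Wnt8a by 1.62 ± 0.86 (0.338) and Wnt8b by -0.20 ± 0.88 (0.998).

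Among the Frizzled receptors, Fzd7 was the gene with the tightest replicates and the one that passed. Fzd7, a receptor for beta-catenin signalling whose promoter window is printed above, lay at -3.55, -3.50 and -3.44 in saline and at -2.43, -2.48 and -2.62 in rhTM hearts. The groups were separated by far more than their SDs of 0.05 and 0.10. The change was 0.99 ± 0.17 (adjusted p = 0.0365), and 0.93 within slide 2 (slide as a block, adjusted p = 0.0462). The call was lost with replicate number blocked (adjusted p = 0.0545), with quantile normalization (0.77, 0.0560) and with normexp background correction (0.31, 0.463), whose added offset of 50 compresses dim probes. Leaving out saline 1, saline 2, rhTM 1 or rhTM 2 left a change of 0.95 to 0.99 that was no longer called (adjusted p 0.104 to 0.205).

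Fzd3, a receptor of the planar polarity branch, lay at -3.92, -4.14 and -3.97 in saline and at -3.46, -3.40 and -3.28 in rhTM hearts. Its groups were likewise apart and narrow, with a difference of 0.63 ± 0.17 (adjusted p = 0.0802) and 0.59 within slide 2. That difference was 0.34 with quantile normalization and 0.03 with normexp. Fzd5 read below the background limit on each saline array (-4.87, -5.72 and -5.35) and was above it on every rhTM array (-4.72, -4.30 and -4.12). It was at least 1.33-fold higher with rhTM in group means (adjusted p = 0.0982), but differed by 0.02 with normexp. Fzd6 differed by 0.60 ± 0.27 (adjusted p = 0.186) and by 0.10 within slide 2, since saline 3 (-0.99) lay among the rhTM hearts (-1.14 to -0.74) and saline 1 and 2 (-1.77 and -1.72) below them.

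Fzd2 was the receptor whose rhTM arrays all lay below the saline arrays. It lay at -0.43, -0.03 and -0.69 in saline and at -1.62, -1.25 and -1.21 in rhTM hearts. The difference was -0.98 ± 0.24 (adjusted p = 0.0662), -0.68 within slide 2 and -0.83 with normexp. Fzd1 was even in rhTM hearts (-0.34, -0.34 and -0.23) and close to them in saline 1 and 2 (-0.03 and -0.33), but stood at 1.15 in saline 3. Over all arrays it differed by -0.57 ± 0.39 (adjusted p = 0.344), and with the slide as a block by -1.45 (adjusted p = 0.0282), a call that rests on saline 3. Fzd8 lay at -2.28, -2.59 and -3.49 in saline and at -3.46, -3.07 and -4.17 in rhTM hearts, lowest in both groups in the array numbered 3, and differed by -0.78 ± 0.41 (adjusted p = 0.240; -0.07 within slide 2).

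Fzd4, the endothelial receptor for norrin and Wnts, was nearly level, at 1.59, 1.53 and 1.11 in saline and 1.73, 1.56 and 1.10 in rhTM hearts. Its difference of 0.05 had a 95% interval of -0.54 to 0.64, and that of Fzd9 (-0.02) one of -0.88 to 0.85. The coreceptor Lrp6 lay at 1.23, 1.25 and 1.12 in saline and at 1.39, 1.22 and 0.94 in rhTM hearts, a difference of -0.01 with an interval of -0.47 to 0.44. Lrp5 lay at 0.42, 0.30 and 0.93 in saline and at 0.96, 0.79 and 0.92 in rhTM hearts. It differed by 0.34 ± 0.22 (adjusted p = 0.322; -0.04 within slide 2), again because saline 3 lay with the rhTM arrays.

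Among the antagonists, Sostdc1, which inhibits BMPs and binds the Lrp coreceptors, was the gene that passed. It lay at -2.53, -2.88 and -1.97 in saline and at -5.02, -6.14 and -4.27 in rhTM hearts. It entered the test through saline alone, where it was high, as no rhTM array read it well above background. The fitted change of -2.68 ± 0.50 (adjusted p = 0.0422) therefore counts as at least 4.73-fold lower, the saline mean set against the lowest signal above background or the probe's own signal in each rhTM array. Arrays with the same number differed by -2.49, -3.26 and -2.30. Within slide 2 Sostdc1 differed by -3.17, no longer called when the slide was a block (adjusted p = 0.0609), and with normexp by -0.99 (adjusted p = 0.0913). Leaving out saline 1, saline 2, rhTM 1 or rhTM 2 gave -2.89 to -2.18 and adjusted p 0.0877 to 0.176.

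Frzb, a secreted Frizzled-related protein expressed in connective tissue, lay at -1.17, -1.28 and 0.09 in saline and at -2.48, -2.27 and -0.90 in rhTM hearts. In both groups the array numbered 3 was the highest, so that rhTM 3 lay above saline 1 and 2 and the groups overlapped. Arrays with the same number differed by between -1.31 and -0.99. The difference of -1.10 ± 0.54 missed the threshold over all arrays (adjusted p = 0.215) and with replicate number blocked (0.0506), and was -1.97 within slide 2. The other probe of Frzb differed by -1.43.

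The Sfrp genes were spread widely within saline. Sfrp1 lay at -0.97, -2.34 and -3.53 in saline and at -2.89, -2.56 and -2.28 in rhTM hearts, and Sfrp5 at -0.25, -1.45 and -1.96 and at -1.79, -2.59 and -1.89. Saline 1 was the highest array for both genes. Sfrp1 differed by -0.30 ± 0.61 (adjusted p = 0.763), but by 0.95 within slide 2, and Sfrp5 by -0.87 ± 0.47 (0.249; -0.13 within slide 2). Sfrp2, a product of activated fibroblasts, lay at -2.02, -1.11 and -2.67 in saline and at -2.48, -1.69 and -0.69 in rhTM hearts, with overlapping groups (0.31 ± 0.56, adjusted p = 0.726). Dkk3, a divergent Dickkopf protein, lay at -2.50, -1.55 and -2.87 in saline and at -2.47, -1.36 and -1.05 in rhTM hearts (0.68 ± 0.48, adjusted p = 0.360).

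Of the genes tested, Wnt2, Wnt4, Wnt5a, Wnt5b, Wnt11, Fzd2, Lrp6, Sfrp2 and Dkk3 had their highest saline value in saline 2. The other genes tested, which were the majority, had it in saline 1 or saline 3. Epicardial and mesothelial markers (7 of 7 tested) summed to 15.0 in saline 2. The other saline arrays reached 3.03 (saline 1) and 1.66 (saline 3), and the rhTM hearts ranged from 2.81 to 4.36. Fibroblast markers (7 of 7) summed to 212 to 237 in saline and 207 to 304 in rhTM hearts. The part of either in the values of these genes was not tested.

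Wif1, the Wnt inhibitory factor, split the rhTM group. It lay at -5.45, -6.04 and -5.07 in saline hearts, none of them above background, at -2.37 and -1.92 in rhTM 1 and 2, both above it, and at -5.19 in rhTM 3. With no filter on dim probes it differed by 2.36 ± 0.85 (adjusted p = 0.199). Sfrp4 was not above background on any array and is given no fold.

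Axin2 missed the threshold narrowly and entered the test through the rhTM arrays alone. Its brightest probe lay at -7.07, -6.99 and -4.57 in saline hearts, none well above background, and at -2.83, -3.11 and -3.64 in rhTM hearts. The groups were apart, with saline 3 nearer to the rhTM arrays than to saline 1 and 2. Axin2 by this probe was at least 3.1-fold higher in group means over all arrays (fitted difference 3.02 ± 0.69, adjusted p = 0.0551). The difference was 1.37 within slide 2 and 0.49 with normexp, both smaller than that fold. The other Axin2 probe, for the same transcript, did not follow. It was above background in saline 1 alone and differed by -0.62.

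**Figure D3:**
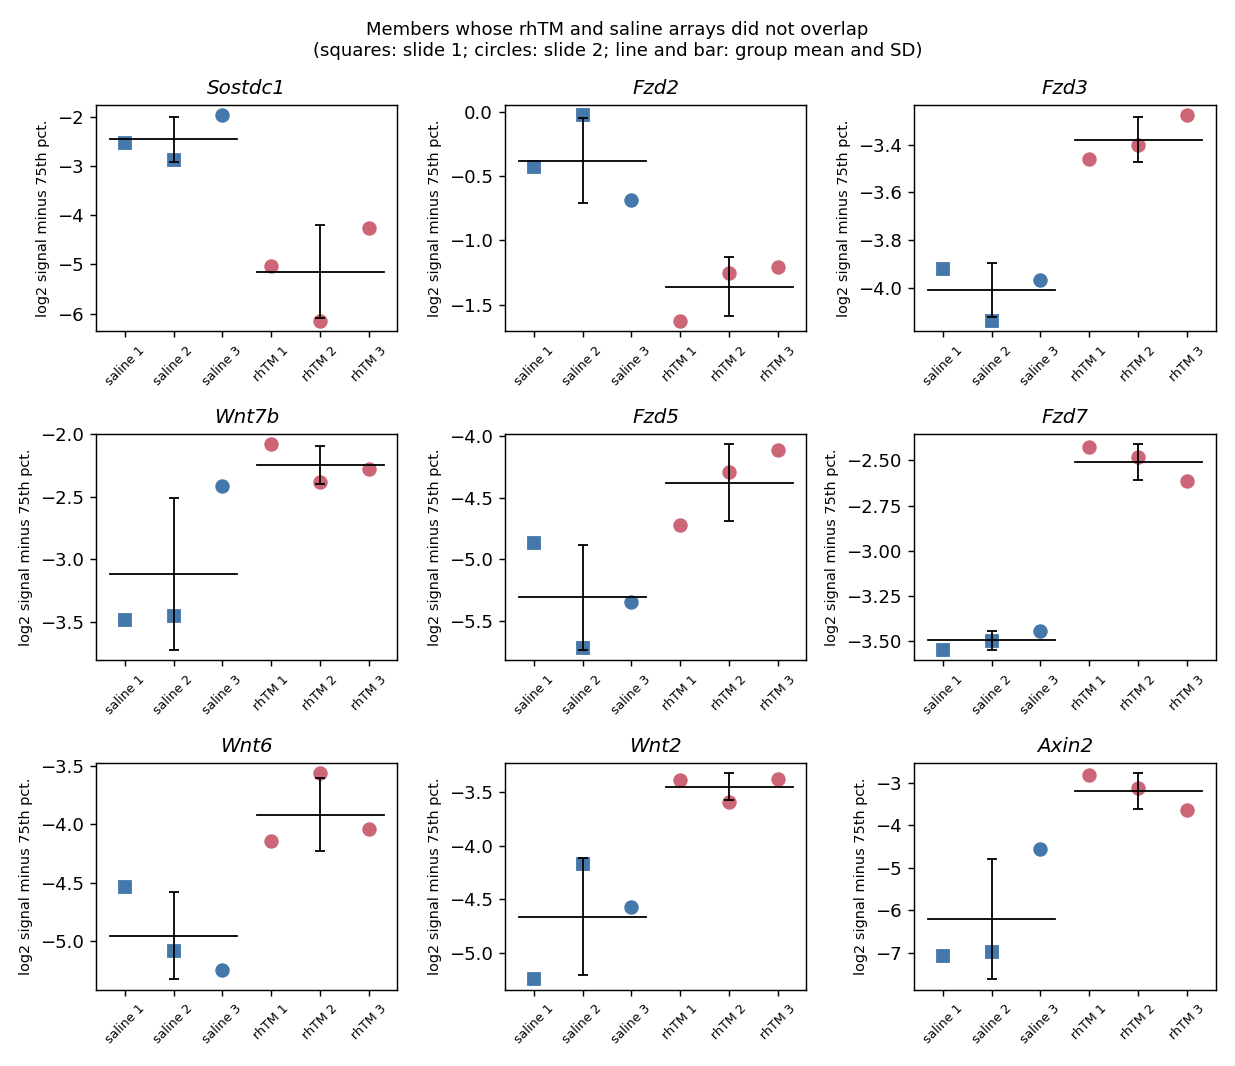
Log2 signal minus the 75th percentile of each array for the 9 genes whose rhTM and saline arrays did not overlap (squares, slide 1; circles, slide 2; line and bar, group mean and SD, n = 3; the vertical scale differs between panels and does not start at a common level). Sostdc1 and Fzd2 lie lower with rhTM and the other 7 higher, and in Wnt7b and Axin2 saline 3 lies closer to the rhTM arrays than saline 1 and 2 do.

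Of the 44 genes, 11 had 2 probes. Those of Wnt7b (0.87 and 1.05), Wnt11 (0.33 and 0.36), Frzb (-1.10 and -1.43) and Fzd5 (0.93 and 0.85) gave like differences, the second Fzd5 probe being above background in rhTM 2 alone. For Wnt7b and Wnt11 the second probe was designed on another transcript of the gene. Wnt5b gave 0.32 and 0.06 by probes for separate transcripts, and Dkk3 0.68 and 0.03. The second Lrp6 probe differed by -0.56, against -0.01 for the brighter one. That of Wnt5a (-0.64) was not above background on any array. The probes of Dkk4 and Wnt10b were not above background on any array.

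**Figure D4:**
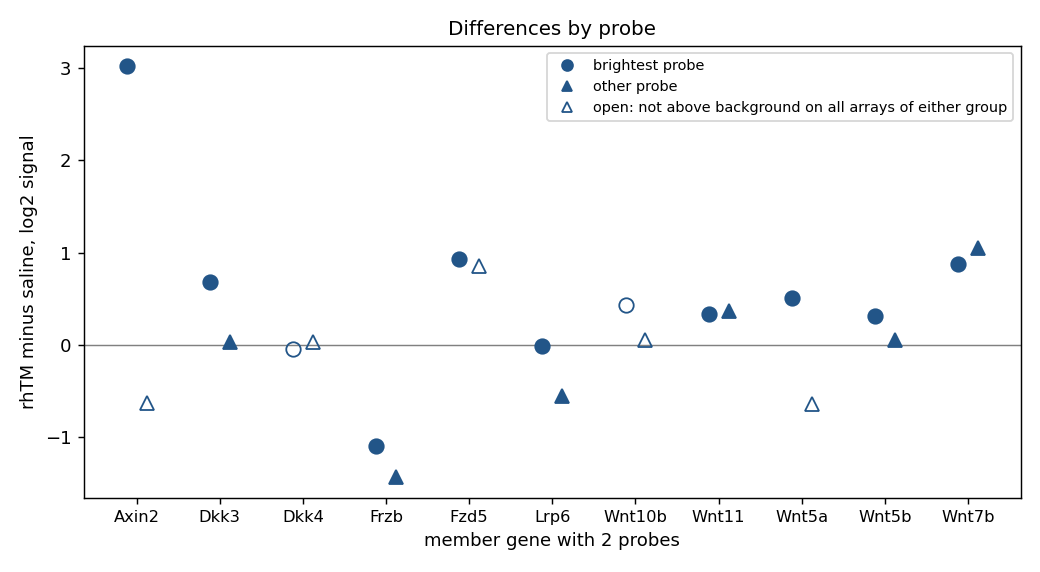
Difference in log2 signal, rhTM minus saline, for each probe of the 11 genes with 2 probes (circles, brightest probe; triangles, other probe; open symbols, not above background on all 3 arrays of either group). Axin2 at 3.02 and -0.62 shows the widest gap between probes of 1 gene.

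Other genes of the pathway were counted in lists drawn up by function, beside 2.77% called higher and 2.43% lower of all genes tested. Of genes for Wnt release and its potentiators 9 of 18 were tested and none was called (limma, 2 at an unadjusted p under 0.05; median change 0.07). Tpbg, which inhibits Wnt signalling at the coreceptor, lay at -4.34, -4.99 and -3.28 in saline and at -6.27, -6.76 and -4.81 in rhTM hearts, where no array read it above background. It passed the filter through saline alone, and its groups overlapped. Tpbg was at least 1.5-fold lower in group means without passing (adjusted p = 0.125), and differed by -0.53 with normexp. It passed the test with replicate number blocked (adjusted p = 0.0390). Dkkl1, a Dickkopf-like gene, differed by 0.67 ± 0.25 (adjusted p = 0.138; 0.70 within slide 2). The Wnt-inactivating esterase Notum differed by 1.12 ± 0.52 (adjusted p = 0.197; -0.07 within slide 2) and the potentiator Rspo1 by 1.06 ± 0.61 (0.272; 2.19 within slide 2). Of the beta-catenin core, with the destruction complex, Dishevelled proteins and TCF/LEF factors, 32 of 34 genes were tested, 0 were called higher and 1 lower (median 0.05). The called gene was the corepressor Tle3 (-0.86 ± 0.17, adjusted p = 0.0457; other probe -0.52), whose call was lost with replicate number blocked (0.0608), with median centring (0.0581) and without any 1 array other than saline 3 (-0.93 to -0.82, adjusted p 0.0664 to 0.216).

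Of feedback and target genes of beta-catenin 11 of the 19 on the array were tested. Of these, 0 were called higher and 1 lower, beside 2.77% and 2.43% of all genes tested. That was Fosl1, an AP-1 factor that answers to many other signals, at least 3.49-fold lower (adjusted p = 0.0394), since no rhTM array read it well above background. It thus entered the test through the saline arrays alone, where it was high. Its call was lost without saline 1, saline 2, rhTM 1 or rhTM 2 (adjusted p 0.0708 to 0.196). The target Myc also lay lower without passing (-2.09 ± 0.56, adjusted p = 0.0767), and it passed with replicate number blocked (0.0390) or slide blocked (0.0494). Nkd2, a feedback inhibitor at Dishevelled, lay higher (1.63 ± 0.42, adjusted p = 0.0704; 0.65 within slide 2), with 0.31, 0.55 and 1.90 in saline and 2.58, 2.55 and 2.52 in rhTM hearts. Of the 11 differences of this list 7 were above 0, with a median of 0.05 over all arrays and of -0.98 within slide 2.

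All 29 genes of the branch without beta-catenin were tested (median 0.10). Of them 3 were called higher and 0 lower, beside 2.77% and 2.43% of all genes tested. This difference in share was not tested. Prickle1, a planar polarity protein, lay at 1.21, 0.91 and 2.83 in saline and at 6.02, 5.96 and 5.31 in rhTM hearts by its brightest probe. This probe changed by 4.12 ± 0.52 (adjusted p = 0.0222; 2.94 within slide 2), while the other Prickle1 probes differed by 0.71 and 0.34. The polarity cadherin Celsr2 (2.11 ± 0.38, adjusted p = 0.0394), above background on 2 of 3 saline arrays, also rested on 1 probe, as its other probes differed by 0.16 and 0.08. The calcium-dependent kinase gene Camk2b changed by 1.61 ± 0.32 (adjusted p = 0.0446; other probe 0.90). Camk2d lay lower without passing (-1.03 ± 0.23, adjusted p = 0.0551; -0.61 within slide 2). Its other probes above background on all arrays differed by -0.85 and 1.06. In this list 6 genes lay apart above and 6 below, beside 17.0% and 18.7% of all genes tested. Celsr2 and Camk2b lost their calls with slide blocked (adjusted p 0.0548 and 0.108) or replicate number blocked (0.0593 and 0.0573), and they and Prickle1 lost them without saline 1, saline 2, rhTM 1 or rhTM 2 (adjusted p 0.0528 to 0.209).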

How the data were processed

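Single-colour (Cy3) Agilent arrays of 6 mouse hearts were analysed, 3 per group by the sample titles. The authors deposited spot intensity values that, per the file headers, came from Feature Extraction 10.7.3.1 (grid built on mm9), background-corrected and not normalized between arrays. The submitters' processing notes name version 9.1. The authors' deposited value table, log2 by comparison with the scanner values, has a baseline per probe that differs between the slides (SD over probes 0.825 between saline 1 and saline 3) and is not given in the sources used here. Centring thus stays unknown, and the table served only as an alternative. Its medians by column ran -0.02 (saline 1), -0.16 (saline 2), 0.10 (saline 3), -0.08 (rhTM 1), 0.03 (rhTM 2) and 0.09 (rhTM 3).

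The processed signal was taken to log2, and the array's 75th percentile (signal 394 to 732) was subtracted. Of 59305 spots per array besides controls, 0 were saturated, and 54.8% to 62.8% read well above background. Spots flagged as outliers on any array were left out, which removed 368 of 56605 probes. Transcript accessions were named through a RefSeq table (GRCm38.p6), which matched 32784 of 56237 probes. The brightest probe stood for a gene, tested if above background on all 3 arrays of a group (14697 of 22811). limma 3.58.1 (R 4.3.3; lmFit, then eBayes, with no term besides group) compared the groups, with Benjamini-Hochberg adjustment over all genes tested, and was tested on simulated data. P-values set the group difference against the spread between arrays within groups. In saline that spread mixes mice with slide and scan. With 3 arrays per group the precision is limited.

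Alternatives were the background correction (normexp, offset 50, on the median signal, as the mean signal was not used here), normalization, filter, probe rule, slide or replicate number as a block, array weights, the deposited table and leaving out arrays. Same-numbered arrays deviated together from the means of their groups (correlation across genes 0.319, 0.235 and 0.372) and were treated as pairs in that block, although saline 1 correlated as well with rhTM 2 (0.314). The numbers come from the titles, and the labels name no common litter or day. The members, lists and tests were chosen with earlier results of these data known. Values per array were due for members called, apart by 2-fold or lowest in p within their role, and others were added after their values were seen. From each pathway list up to 4 genes were named by p.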

Additional observations from a re-analysis of the deposited data

How the results depend on the processing

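With 3 arrays per group and many of these genes close to background, counts moved with most settings. Over all genes, 407 were called higher and 357 lower. Normexp gave 201 and 213, no filter 132 and 19, array weights 4663 and 4579, and the deposited values 2205 and 2313. Leaving out 1 array gave 0 to 3006 higher and 0 to 2806 lower. Without saline 3 and rhTM 3 together, an alternative chosen after seeing the data in which slide and group coincide, 3946 and 3870 were called. Of the 27 genes, 1 was called higher (Fzd7) and 1 lower (Sostdc1). Normexp called 0 and 0 of them (2 at an unadjusted p under 0.05, limma, beside 3632 of 14697 genes). No filter also called 0 and 0, with 12 of all 44 at an unadjusted p under 0.05, beside 4636 of 22811 genes. Quantile normalization called 0 higher (5 at an unadjusted p under 0.05, beside 4383 of 14697 genes). Genes above background on all arrays included 0 called lower because Sostdc1 was not among them. Array weights gave 10 and 6, and the deposited values 8 and 3. Leaving out 1 array gave 0 to 9 higher and 0 to 3 lower, and leaving out both arrays numbered 3 gave 7 and 4. With replicate number blocked 0 were called higher (13 of the 27 at an unadjusted p under 0.05, beside 5299 of 14697 genes). The block thus ended the call of Fzd7 and kept that of Sostdc1. With the slide as a block Fzd7 was called higher and Fzd1 lower. The cause of these shifts was not tested, apart from the genes that a filter adds or removes. The median change of the 27 genes, 0.32, moved by less than the SD of that median between arrays of a group (0.31) under all 17 alternatives, at 0.04 to 0.40, of which no filter covers all 44 genes and the strictest filter 21. In 16 genes the difference kept its sign in every alternative that tested the gene. The other 11, not called over all arrays, had the other sign in at least 1, and 7 of the 27 were called in none.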

Other observations

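Pairs of Wnt genes that neighbour each other among protein-coding genes in the RefSeq table (GRCm38.p6) differed in detection. In all 4 such pairs 1 gene stayed below background throughout. Wnt6 was above it on 5 of 6 arrays and its neighbour Wnt10a on 0. Wnt9a was above it on all 6 and Wnt3a on 0, Wnt1 on all 6 and Wnt10b on 0, and Wnt9b on 3 and Wnt3 on 0. Each rests on the brightest probe of the gene, and detection of 1 probe says nothing of the level against another probe.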
